A study of Mus musculus with 2 samples.

Results

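The proliferating spots of this cerebellar breast tumor model were the tumor spots richest in Mki67, the gene of the proliferation antigen Ki-67, and Top2a, the gene of topoisomerase II alpha. They numbered 145 of 1442 tumor spots, out of 7423 tissue spots on 2 sections, with 76 of 754 tumor spots in section 1 and 69 of 688 in section 2. A spot was taken as tumor if it held at least 20000 unique molecular identifiers (UMIs, counts of captured molecules) and, in section 1, at least 10000 CPM (UMIs of a gene per 1000000 UMIs) of Col1a1 and Col3a1 together or, in section 2, at least 5000 CPM of Epcam, Krt7 and Krt8 together. The top 10% of the tumor spots of each section by the sum of Mki67 and Top2a CPM were the members, and the bottom 30% of the same section, 226 and 207 spots, were the low spots they were compared with. The 452 and 412 tumor spots in between were kept as a middle class.

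Both sections carried the genotype HP and NO treatment in their labels, so there was 1 condition and the comparison ran within each section. HP stands for a human HER2 V777L transgene behind a Lox-STOP-Lox cassette together with PIK3CA H1047R. Mammary tumors were induced in HP mice with Cre adenovirus, and organoids grown from them and labeled with luciferase were injected into the cerebellum of C57BL/6 hosts 5 months old with an intact immune system, where they grew for 3 weeks. Host cells and tumor cells are both murine and share the spots. The titles name section 1 HP-F1 and section 2 HP-B6, while the cell line label reads B6-HP for both. Each section was 5 µm of fixed tissue from 1 host, read with mouse probes (Visium CytAssist) on a 6.5 mm capture area, and 3096 barcode sequences occurred on both arrays. Each spot pools the RNA of whichever cells lie over it, so a higher level can come from more dividing cells or from more RNA per cell, and these cannot be told apart.

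A cell that commits to division first makes the enzymes of DNA replication and nucleotide synthesis, whose genes are driven by E2F factors, and then the cyclins, kinases, kinetochore proteins and kinesins of mitosis, many of whose genes carry CHR and CCAAT elements in their promoters. Ki-67 coats mitotic chromosomes and is absent from resting cells, and topoisomerase II alpha untangles sister DNA before chromosomes part. Oxygen supply varies inside solid tumors, and cells short of oxygen raise a set of genes for glycolysis, acid export and vessel growth through hypoxia-inducible factors.

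The values that chose the spots are given as a description only. In section 1 the summed Mki67 and Top2a level of the members ran from 366.6 to 560.0 CPM with a median of 408.8, against a median of 274.2 CPM in the middle class and 169.2 CPM in the low spots. In section 2 the members ran from 390.4 to 842.8 CPM with a median of 442.3, against 244.6 CPM in the middle class and 106.5 CPM in the low spots. The classes were cut from a continuous range. The member nearest the limit held 366.6 CPM in section 1 and 390.4 CPM in section 2, and the tumor spots just outside held 365.9 and 389.9 CPM. At the lower limit, the last low spot held 209.5 CPM and the next spot above it 209.6 CPM in section 1, with 154.63 and 154.64 CPM in section 2. A tumor spot held a median of 13.5 UMIs of the pair in section 1 and 9 in section 2, so part of the ordering was counting noise: the variance between spots was 1.49 times what counting alone gives in section 1 and 2.82 times in section 2.

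**Figure D1:**
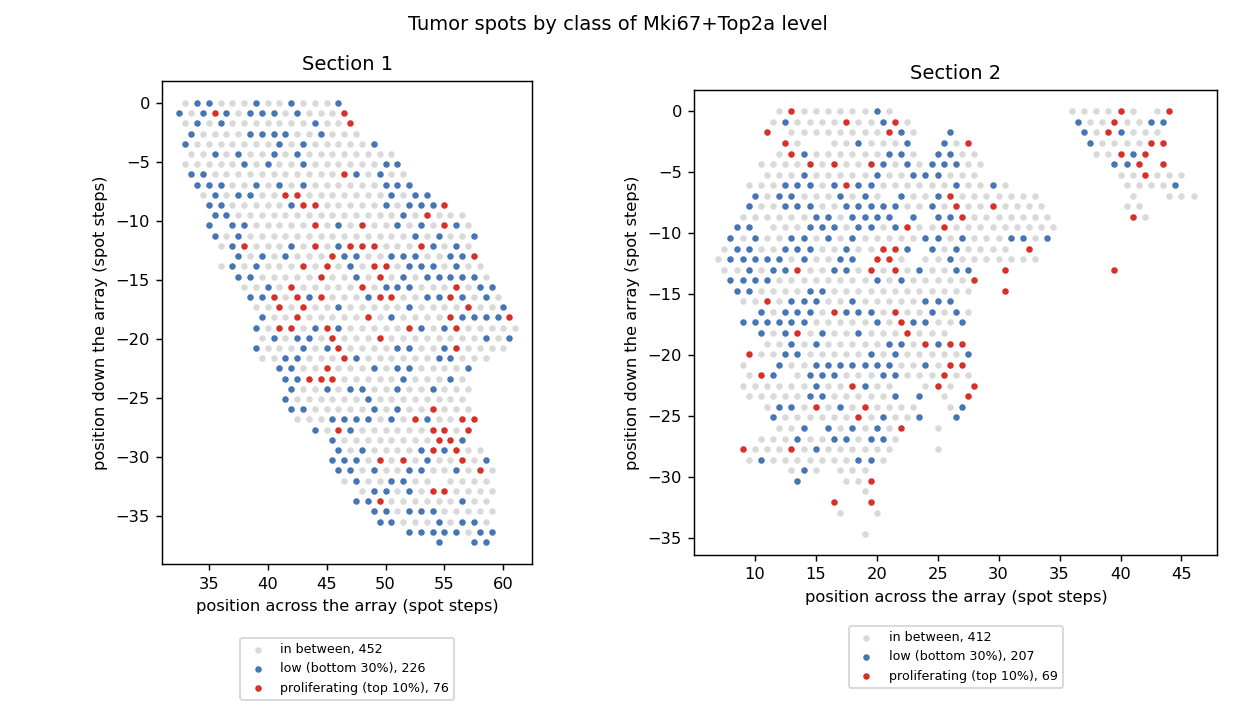
Positions of the tumor spots on the array of each section, in spot steps across and down, colored as proliferating (76 and 69 spots), low (226 and 207) and in between (452 and 412). Proliferating spots were scattered through the section 1 tumor and lay more often at the border in section 2. There 47.8% of them and 30.4% of low spots touched tissue outside the tumor spots, a gap that was smaller with a minimum of 30000 UMIs.

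The pair of genes moved together less tightly in section 1 than in section 2. Across tumor spots, Pearson's r between Mki67 and Top2a CPM was 0.186 in section 1 (754 spots) and 0.413 in section 2 (688 spots), both over spots of 1 library that share its depth. When Mki67 alone chose the top 10% and bottom 30%, Top2a stood at 114 CPM (95% counting interval 103 to 124) against 89.0 CPM (83.6 to 94.6) in section 1, a ratio of 1.28. The same split gave 123 CPM (111 to 136) against 54.6 CPM (49.8 to 59.8) in section 2, a ratio of 2.26. When Top2a alone chose, Mki67 stood at 184 against 146 CPM in section 1, a ratio of 1.27, and at 221 against 110 CPM in section 2, a ratio of 2.01. The gene that had no part in choosing was thus higher in the chosen spots of both sections at the depth as deposited, with the larger ratio in section 2 each time; with 1 section of each kind the difference between sections was not tested. With every tumor spot thinned to 20000 UMIs the ratios were 1.11 and 1.05 in section 1 and 1.83 and 1.42 in section 2. Thinning left spots tied at the limits, and ties went with the class, so these classes were wider than 10% and 30%. By Top2a in section 2, for example, the chosen spots held 3160000 UMIs and the low spots 7800000, at 20000 each. At this equal depth the intervals of section 1 overlapped. Top2a stood at 98.97 CPM (85.5 to 114) in the chosen spots and 89.4 CPM (81.7 to 97.5) in the low spots. Mki67 stood at 166 CPM (150 to 184) and 158 CPM (149 to 168), and the middle class held 102 and 168 CPM. No difference was detectable in section 1 between these wider classes. In section 2 Top2a stood at 117 CPM (101 to 136) against 64.1 CPM (58.0 to 70.6) and Mki67 at 183 CPM (169 to 199) against 129 CPM (121 to 137). These intervals cover counting error only.

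**Figure D2:**
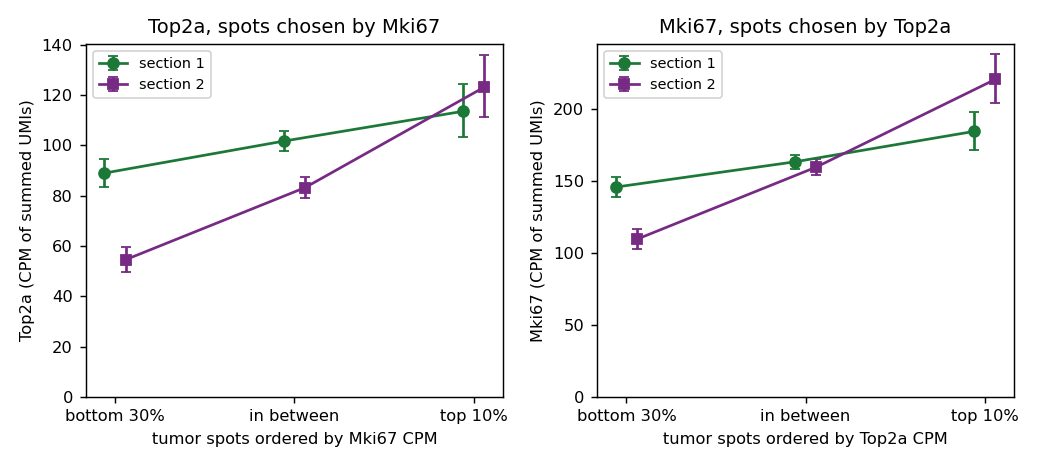
Level in CPM of Top2a in spots chosen by Mki67 and of Mki67 in spots chosen by Top2a, for the low, middle and proliferating class of each section, with exact 95% counting intervals. The steps are shallow in section 1 (Top2a 89.0 to 114 CPM) and steep in section 2 (54.6 to 123 CPM).

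Depth differed between the classes, and its part in the results was described by thinning but not tested. Median UMIs per spot were 56286 in members and 48124 in low spots of section 1, and 43626 against 40560 in section 2, while median detected genes were 9845.5 against 9415 and 9056 against 8615. With each tumor spot thinned to 20000 UMIs and the classes chosen anew, median detected genes were 6494.5 in members and 6511.5 in low spots of section 1. In section 2 they were 6692 and 6590. Summed by class and section as deposited, the members held 4241543 and 3058431 UMIs and the low spots 11025263 and 8675644.

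Proliferating spots had other proliferating spots among their neighbors more often than tumor spots in general did, and their place in the tumor differed between the sections. Of the contacts of members with neighboring tumor spots, 17.8% were with other members in section 1 and 15.8% in section 2, against 10.3% and 8.78% of the contacts of all tumor spots and 7.84% and 5.15% of those of low spots. Tumor spots that touched a member without being one held a median of 246.8 CPM of the pair in section 1 and 231.2 CPM in section 2, against 234.5 and 188.6 CPM for those that touched a low spot. In section 1, 6.58% of members lay at the border of the tumor spots, against 22.1% of low spots, and the median distance to tissue outside was 5 spot steps for members and 3 for low spots. This gap depended on the choosing gene: with members by Top2a alone 17.1% of members and 22.1% of low spots lay at the border, with a median of 4 steps for both, and with members by Mki67 alone 7.89% and 21.2% did, with medians of 7 and 4. In section 2 the order was turned: 47.8% of members and 30.4% of low spots lay at the border, and the median was 2 steps for both. By Top2a alone the shares were 47.8% and 31.4%, and by Mki67 alone 52.2% and 32.4%. The section 2 gap depended on the UMI minimum that drew the tumor edge. With at least 10000 UMIs the shares were 49.3% and 28.6%, and with at least 30000 UMIs they were 53.2% and 46.8%. Members made up 5.10% of the outermost tumor spots, 13.3% of those 3 to 4 steps in and 10.6% of those 5 or more steps in for section 1. In section 2 their share went from 13.8% in the outermost spots to 7.25% at 3 to 4 steps and 6.90% at 5 or more. The section 2 tumor consisted of a body of 623 spots, of which 8.67% were members, a separate body of 58 spots, of which 20.7% were members, and 7 spots apart from both. Place was described without a test, since spots of 1 section are not replicates.

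Over the whole transcriptome, few genes were called different between proliferating and low spots when both sections were fitted together. With Mki67 and Top2a left out, 47 of 17772 genes tested were called (0.264%), 21 of them higher (0.118%) and 26 lower (0.146%) in proliferating spots, by edgeR's quasi-likelihood test on UMIs summed by class and section with the section as a block and Benjamini-Hochberg adjustment over all genes at 0.05. The test rests on 2 sections and 2 residual degrees of freedom, and p-values measure how alike the 2 sections and their middle classes behave. A call did not require the same direction in both sections. Krt5 was called with log2 fold changes of -0.36 in section 1, on 1 and 5 UMIs, and 1.16 in section 2. Gene levels below are CPM with TMM-scaled library sizes, 1 summed library per class and section, and log2 fold changes are proliferating over low with the standard error (SE) of the fit. Of the 230 measured cell cycle genes, 229 were tested, 8 were called higher and 0 lower; 196 of them (85.6%) were higher in proliferating spots of both sections, against 26.0% of all genes tested, and 9 were lower in both, against 25.0%. Their median log2 fold change was 0.49, with 0.26 in section 1 and 0.74 in section 2, while the median over all genes was -0.01. Summed over the list, cell cycle genes stood at 10886 CPM in members, 10224 in the middle class and 9497 in low spots of section 1, and at 13885, 11596 and 9781 CPM in section 2. Per spot, 76.3% of members and 27.4% of low spots lay above the tumor median of the list in section 1, and 97.1% and 15.9% in section 2, so the classes overlapped in both sections and more so in section 1. Cell cycle genes and the genes that chose the spots belong to 1 program, so these counts describe the spots and are no independent evidence.

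**Figure D3:**
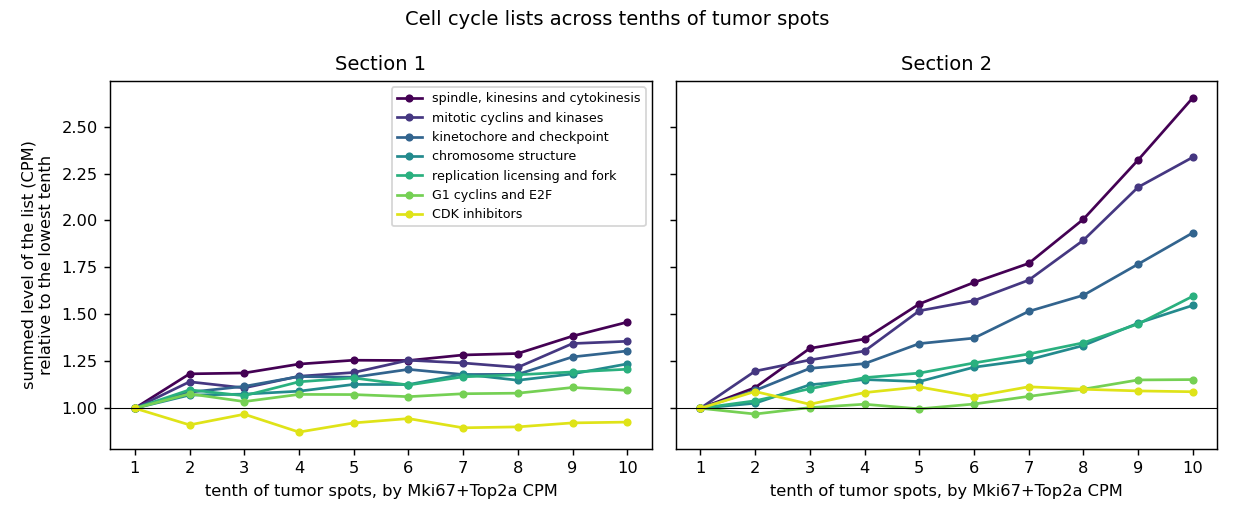
Summed CPM of 7 cell cycle lists, relative to the lowest group, in 10 groups of tumor spots of each section, ordered by the Mki67 and Top2a level, with group 10 the highest. The spindle list climbs most, from 705 to 1028 CPM in section 1 and from 470 to 1246 CPM in section 2, while the CDK inhibitor list stayed between 355 and 407 CPM and between 1007 and 1122 CPM.

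Mitotic cyclins and kinases were higher in proliferating spots of both sections for 19 of 22 genes tested, with 2 called. Ccnb2, the cyclin B2 that activates Cdk1 for entry into mitosis, stood at 76.2 CPM in members and 54.5 in low spots of section 1 and at 87.0 and 45.1 CPM in section 2. It rose by 0.70 on the log2 scale (SE 0.11, edgeR adjusted p = 0.033). Melk, a mitotic kinase, stood at 31.5 and 21.1 CPM in section 1 and 51.6 and 23.1 CPM in section 2, and rose by 0.86 (SE 0.15, edgeR adjusted p = 0.048). For both genes the members were above the low spots in each section, with the wider gap in section 2. Cdk1 itself, the kinase that drives mitotic entry, stood at 167 and 134 CPM in section 1 and 212 and 113 CPM in section 2, with a log2 fold change of 0.60 that was not called (SE 0.12, edgeR adjusted p = 0.11). The list summed to 894 against 714 CPM in section 1 and 1053 against 521 CPM in section 2, ratios of 1.25 and 2.02.

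Kinetochore and checkpoint genes were higher in both sections for 27 of 28 genes tested, with 2 called. Bub1, a checkpoint kinase at kinetochores, stood at 35.2 CPM in members and 21.1 in low spots of section 1 and at 35.7 and 14.6 CPM in section 2, and rose by 0.97 (SE 0.15, edgeR adjusted p = 0.030). Spc25, a subunit of the NDC80 complex that binds microtubules, stood at 53.1 and 32.9 CPM in section 1 and 36.7 and 17.0 CPM in section 2, and rose by 0.85 (SE 0.13, edgeR adjusted p = 0.030). Members of the 2 sections lay close together for Bub1, and it was the low spots that differed between them. Zwint, a kinetochore scaffold, was the list's exception, with 31.7 and 39.2 CPM in section 1 and 86.4 and 87.0 CPM in section 2.

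Spindle, kinesin and cytokinesis genes showed the widest gap of the cell cycle lists, with a median log2 fold change of 0.74, 0.36 in section 1 and 1.20 in section 2. Of 29 tested, 28 were higher in both sections, and 1 was called. Ckap2l, a spindle protein, stood at 41.7 CPM in members and 26.3 in low spots of section 1 and at 40.9 and 22.9 CPM in section 2, and rose by 0.74 (SE 0.13, edgeR adjusted p = 0.048). The summed list was 1.29 times higher in members of section 1 and 2.32 times higher in section 2. Kif4, a chromosome-bound kinesin, shows how unequal the sections were, with 28.0 and 21.1 CPM in section 1 but 25.0 and 7.91 CPM in section 2, and it was not called. Iqgap3 and Cip2a, a scaffold linked to growth of dividing cells and an inhibitor of the phosphatase PP2A, were on no list. Cip2a stood at 47.8 and 30.2 CPM in section 1 and 72.1 and 30.0 CPM in section 2, and rose by 0.96 (SE 0.14, edgeR adjusted p = 0.024). Iqgap3 stood at 41.0 and 27.1 CPM in section 1 and 68.8 and 28.5 CPM in section 2, and rose by 0.93 (SE 0.15, edgeR adjusted p = 0.034).

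Chromosome and histone genes followed. Of 25 chromosome structure genes tested, 22 were higher in both sections and 2 were called. H2afx, the histone variant H2A.X marked at DNA breaks, stood at 79.9 CPM in members and 54.8 in low spots of section 1 and at 114 and 56.7 CPM in section 2, and rose by 0.77 (SE 0.11, edgeR adjusted p = 0.024). Ncapd2, a condensin subunit that compacts chromosomes, stood at 79.5 and 56.6 CPM and at 87.7 and 49.0 CPM, and rose by 0.65 (SE 0.098, edgeR adjusted p = 0.024). The linker histone gene Hist1h1c, at 1119 and 828 CPM in section 1 and 691 and 371 CPM in section 2, rose by 0.66 (edgeR adjusted p = 0.030), and the core histone gene Hist4h4, at 118 and 83.8 CPM and at 91.9 and 44.0 CPM, rose by 0.73 (edgeR adjusted p = 0.047). Histone genes have many near-identical copies, so the gene to which their probes' counts belong is uncertain.

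None of the DNA replication genes was called. With 0.264% of all genes called, the lack of a call says little for a list of this size, here or in the lists below. Of the 41 tested, 39 were higher in both sections, with a median log2 fold change of 0.36, 0.24 in section 1 and 0.51 in section 2. Mcm2, a subunit of the replicative helicase, stood at 59.9 and 50.8 CPM in section 1 and 50.3 and 35.1 CPM in section 2 (log2 fold change 0.36, SE 0.10, edgeR adjusted p = 0.25). Mcm10, which helps fire origins, stood at 15.4 and 12.9 CPM in section 1 and at 20.1 and 7.31 CPM in section 2 (0.78, SE 0.26, edgeR adjusted p = 0.35). Prim1, the primase subunit, stood at 16.8 and 14.1 CPM in section 1 and at 19.5 and 8.27 CPM in section 2 (0.67, SE 0.23, edgeR adjusted p = 0.35). Pcna, the sliding clamp often used as a proliferation marker, was read at only 1.17 and 1.32 CPM in section 1 and 1.30 and 1.80 CPM in section 2 (4 UMIs in all members of section 2), too few for a comparison. Tk1, the thymidine kinase made for replication, was the called gene among 17 nucleotide synthesis genes: it stood at 105 and 77.2 CPM in section 1 and 241 and 128 CPM in section 2, and rose by 0.69 (SE 0.10, edgeR adjusted p = 0.027). Of 23 homologous recombination and DNA damage genes, 15 were higher in both sections and none was called; Brca1 stood at 15.8 and 11.7 CPM in section 1 and at 27.6 and 10.4 CPM in section 2 (0.91, SE 0.23, edgeR adjusted p = 0.17).

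The regulators of the start of the cycle separated the classes less. Among 22 G1 cyclin and E2F genes none was called, and the median log2 fold change was 0.22. Ccnd1, the cyclin D1 that growth factor signaling turns on, stood at 464 and 413 CPM in section 1 and 648 and 603 CPM in section 2 (0.14, SE 0.065, edgeR adjusted p = 0.54). E2f7, an E2F family repressor of S phase genes, stood at 10.3 and 7.40 CPM in section 1 and at 17.9 and 4.20 CPM in section 2 (1.19, SE 0.33, edgeR adjusted p = 0.25). None of the 8 CDK inhibitor genes was called either, and 3 were higher in both sections. Cdkn1a, encoding p21, stood at 79.9 and 111 CPM in section 1 and 58.8 and 63.3 CPM in section 2 (-0.32, SE 0.11, edgeR adjusted p = 0.36). Cdkn2a, encoding p16 and p19ARF, stood at 5.36 and 5.90 CPM in section 1 but at 619 and 611 CPM in section 2, far higher in section 2 in both classes (-0.02, SE 0.11, edgeR adjusted p = 0.98). Of the 14 anaphase-promoting complex genes, 11 were higher in both sections and none was called. Cdca3 stood at 81.1 and 57.4 CPM in section 1 and 83.4 and 30.4 CPM in section 2 (0.90, SE 0.22, edgeR adjusted p = 0.31). Ube2c stood at 14.7 and 11.4 CPM in section 1 and 15.6 and 7.55 CPM in section 2 (0.65, SE 0.23, edgeR adjusted p = 0.38).

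Genes of the HER2 and PI3K pathway, to which the initiating oncogenes belong, lay near the background of all genes. Of 23 tested, 5 were higher in both sections (21.7%, against 26.0% of all genes) and 7 lower (30.4%, against 25.0%), with a median log2 fold change of -0.03. None was called, and with 0.264% of all genes called a list of this size says little by that count. Tgfa stood at 6.53 and 13.4 CPM in section 1 and 40.9 and 54.4 CPM in section 2 (-0.61, SE 0.18, edgeR adjusted p = 0.27). Hbegf stood at 17.7 and 29.5 CPM in section 1 and 51.9 and 66.0 CPM in section 2 (-0.50, SE 0.12, edgeR adjusted p = 0.17). Mouse Erbb2 stood at 15.8 and 13.7 CPM in section 1 and 54.9 and 50.2 CPM in section 2 (0.16, SE 0.12, edgeR adjusted p = 0.72), and how far the mouse probe reads the human transgene is not known here. Myc, a driver of growth and ribosome production, stood at 60.8 and 51.5 CPM in section 1 and 246 and 213 CPM in section 2 (0.22, SE 0.072, edgeR adjusted p = 0.32). In the MYC and ribosome biogenesis list 16 of 24 genes and in the oxidative phosphorylation list 16 of 21 genes were higher in both sections, with medians of 0.15 and 0.11 and none called, and of 15 p53 target genes 5 were higher in both and none was called.

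Hypoxia and glycolysis genes ran the other way. Of 23 tested, 4 were called lower and none higher in proliferating spots, and 21 (91.3%) were lower in both sections, against 25.0% of all genes. The median log2 fold change was -0.52, with -0.24 in section 1 and -0.75 in section 2. Adm, the vessel-widening peptide adrenomedullin, stood at 6.99 CPM in members and 21.8 in low spots of section 1 and at 57.5 and 126 CPM in section 2, and fell by 1.28 (SE 0.15, edgeR adjusted p = 0.0093). Slc16a3, the lactate exporter MCT4, stood at 26.8 and 44.2 CPM in section 1 and 115 and 269 CPM in section 2, and fell by 1.06 (SE 0.11, edgeR adjusted p = 0.0053). Car9, carbonic anhydrase IX, which handles acid at the cell surface, stood at 9.09 and 16.8 CPM in section 1 and 96.7 and 173 CPM in section 2, and fell by 0.84 (SE 0.095, edgeR adjusted p = 0.0085). Members were below low spots in each section for all 3 genes, and section 2 was higher than section 1 throughout. P4ha2, a collagen prolyl hydroxylase, fell by 0.61 (edgeR adjusted p = 0.024). Ero1l, an oxidase for disulfide bonds that was on no list, fell by 0.61 as well (edgeR adjusted p = 0.024). Vegfa, the main signal for vessel growth, stood at 44.0 and 66.1 CPM in section 1 and 156 and 406 CPM in section 2, and was not called (-1.07, edgeR adjusted p = 0.11).

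A smaller share of members than of low spots lay at the top of the hypoxia list. Of the 76 members in section 1, 1 lay in the top 10% of tumor spots by the summed hypoxia list (1.32%), against 46 of 226 low spots (20.4%). In section 2, 4 of 69 members (5.80%) and 35 of 207 low spots (16.9%) did. By the cut itself, 10% of all tumor spots of a section did. Of the middle class, 29 of 452 spots (6.42%) did in section 1 and 30 of 412 (7.28%) in section 2. Members of section 2 thus lay close to the middle class, and the low spots stood apart. Where the hypoxia list was high differed between the tumors: its median per spot went from 6009 CPM in the outermost tumor spots to 3112 CPM at 5 or more steps in section 1, and from 4683 to 6849 CPM in section 2. The neuron list was highest in border spots of both sections, and more so in section 1. There it had a median of 385 CPM in the outermost tumor spots and 60.8 CPM at 5 or more steps. In section 2 the medians were 116 CPM in the outermost spots, 67.7 at 2 steps, 54.7 at 3 to 4 and 78.1 at 5 or more. With border spots left out, the median over the hypoxia genes was -0.41 and Slc16a3 was no longer called (-0.89, edgeR adjusted p = 0.56), although its log2 fold change was close to the -1.06 with all spots. Tk1 (0.63), Hist1h1c (0.56), Hist4h4 (0.61) and Bub1 (0.66) were no longer called either, and the log2 fold change of Bub1 moved most, from 0.97.

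**Figure D4:**
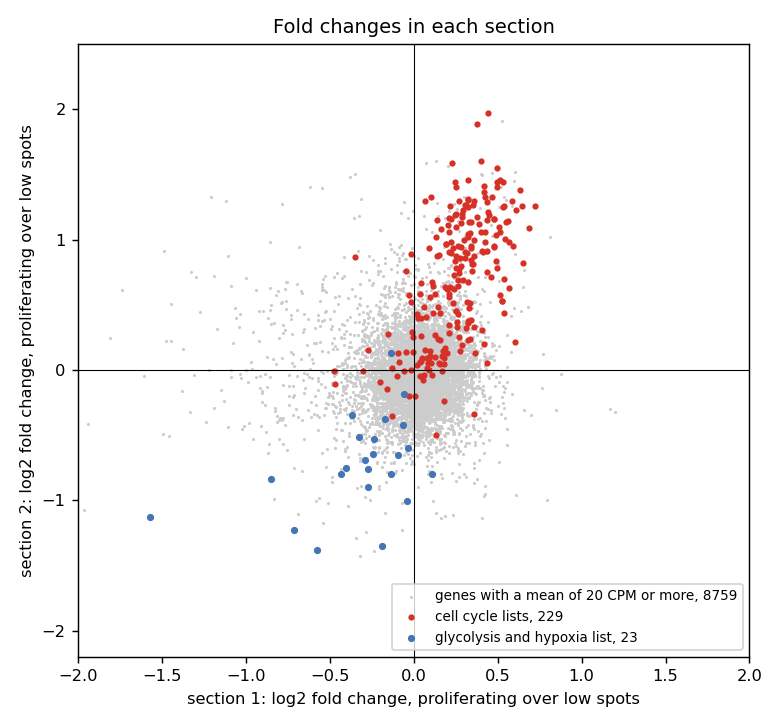
Log2 fold change of proliferating over low spots in section 1 (horizontal) and section 2 (vertical) for 8759 genes with a mean of at least 20 CPM in gray (1 lies outside the axes), with the cell cycle and hypoxia genes in color. Cell cycle genes lie mostly at the upper right, where both sections are higher (medians 0.26 and 0.74), and hypoxia genes at the lower left, where both are lower (-0.24 and -0.75).

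**Figure D5:**
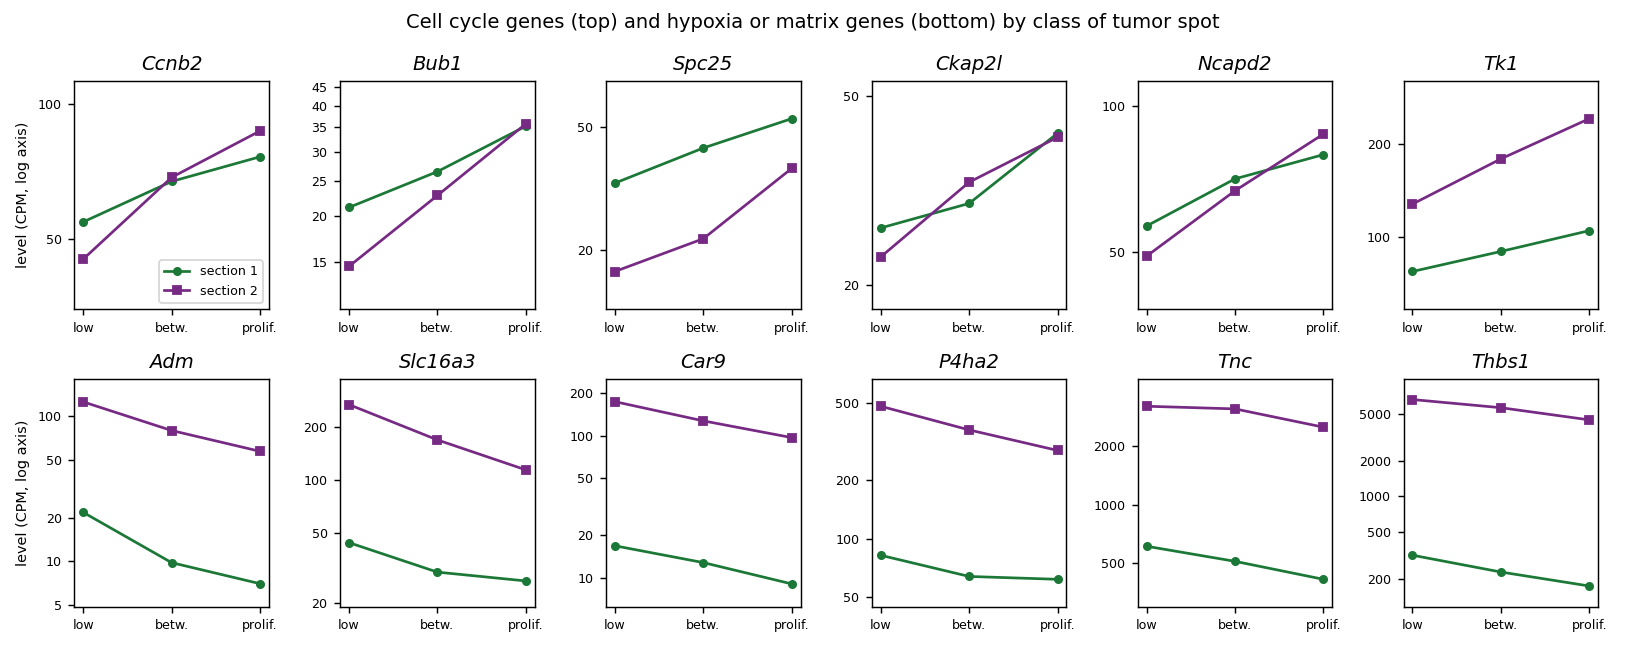
Level in CPM on a log axis of 6 called cell cycle genes (top) and 6 called hypoxia or matrix genes (bottom) in the low, middle and proliferating class, 1 line per section. Each of the 12 genes moves in steps through the middle class in both sections, as for Ccnb2 from 54.5 over 67.1 to 76.2 CPM in section 1.

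The promoters of a few called genes are shown as examples of the short sequence elements that were counted at the start sites of each list. Each window runs from 250 bases before to 50 bases after the start of transcription, 5′ to 3′ on the gene's strand, from RefSeq on GRCm38.p6. Capitals mark the CHR element TTTGAA and the CCAAT box CCAAT in the first 3 and the core of the hypoxia response element, ACGTG or GCGTG, in the last 2, each on either strand, so that a match on the other strand is printed as TTCAAA for CHR, as ATTGG for the CCAAT box and as CACGT or CACGC for the core. Where RefSeq gives a gene several starts, the first listed window was taken.
Ccnb2, chr9:70421505-70421804, minus strand: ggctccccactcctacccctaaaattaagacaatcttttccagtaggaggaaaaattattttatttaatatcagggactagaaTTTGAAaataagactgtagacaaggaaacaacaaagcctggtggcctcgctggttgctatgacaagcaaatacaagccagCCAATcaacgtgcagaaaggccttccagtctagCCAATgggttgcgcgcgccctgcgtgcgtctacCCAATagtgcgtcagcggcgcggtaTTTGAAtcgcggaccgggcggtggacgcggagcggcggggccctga
Bub1, chr2:127831810-127832109, minus strand: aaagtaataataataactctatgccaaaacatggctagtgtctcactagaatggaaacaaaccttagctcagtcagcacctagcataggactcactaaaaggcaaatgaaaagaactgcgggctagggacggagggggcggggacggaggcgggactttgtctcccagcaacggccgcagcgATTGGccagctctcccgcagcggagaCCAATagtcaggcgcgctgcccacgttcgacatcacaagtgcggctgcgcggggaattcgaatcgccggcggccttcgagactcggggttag
Ckap2l, chr2:129297163-129297462, minus strand: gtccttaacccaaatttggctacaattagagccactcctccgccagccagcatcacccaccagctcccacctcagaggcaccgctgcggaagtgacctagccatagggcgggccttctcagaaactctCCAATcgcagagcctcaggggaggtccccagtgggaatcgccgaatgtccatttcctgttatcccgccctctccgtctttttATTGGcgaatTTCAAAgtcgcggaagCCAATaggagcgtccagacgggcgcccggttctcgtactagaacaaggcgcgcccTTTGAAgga
Car9, chr4:43506776-43507075, plus strand: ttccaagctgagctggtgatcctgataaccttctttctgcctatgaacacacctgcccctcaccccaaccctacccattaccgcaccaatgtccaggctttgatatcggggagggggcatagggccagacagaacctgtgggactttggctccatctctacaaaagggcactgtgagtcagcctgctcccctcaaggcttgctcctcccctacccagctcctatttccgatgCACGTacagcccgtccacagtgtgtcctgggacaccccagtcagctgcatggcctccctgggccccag
Adm, chr7:110627407-110627706, plus strand: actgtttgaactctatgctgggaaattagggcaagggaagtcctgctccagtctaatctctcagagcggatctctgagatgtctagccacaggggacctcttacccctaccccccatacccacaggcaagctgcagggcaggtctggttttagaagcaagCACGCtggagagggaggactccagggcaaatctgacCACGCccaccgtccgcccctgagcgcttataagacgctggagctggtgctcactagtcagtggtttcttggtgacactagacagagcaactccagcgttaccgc
The window of Ccnb2 holds 2 CHR elements and 3 CCAAT boxes, that of Ckap2l 2 and 3, and that of Bub1 2 CCAAT boxes with no CHR match. Over all 27025 windows, CHR was found in 18.1%, CCAAT in 37.9%, the E2F sites TTTGGCGC or TTTCCCGC in 1.63% and the hypoxia core in 43.8%, a core that also lies within the common E-box CACGTG. CHR was found in 21 of 26 spindle gene windows (80.8%), 11 of 24 kinetochore windows (45.8%) and 5 of 32 replication windows (15.6%). The E2F sites were found in 12 of 32 replication windows (37.5%) and 2 of 26 spindle windows (7.69%). The CCAAT box was about as frequent in both lists, in 21 of 32 replication windows (65.6%) and 18 of 26 spindle windows (69.2%). The hypoxia core was found in 17 of 22 hypoxia list windows (77.3%), in 14 of 17 windows of genes called lower (82.4%) and in 6 of 16 windows of genes called higher (37.5%). It was about as frequent in lists that did not fall, with 11 of 14 windows of mitotic cyclins and kinases (78.6%), 10 of 13 of the anaphase-promoting complex (76.9%) and 15 of 20 of the MYC list (75%). A match is a description of these letters and not a site in use.

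Genes of matrix proteins were among the genes that fell. Thbs1, the matrix glycoprotein thrombospondin 1, stood at 175 CPM in members and 318 in low spots of section 1 and at 4419 and 6562 CPM in section 2, and fell by 0.71 (SE 0.083, edgeR adjusted p = 0.0093). Tnc, tenascin C, fell by 0.46 (edgeR adjusted p = 0.034). Both falls depended on the choosing gene. With members by Top2a alone the log2 fold change was -0.29 for Thbs1 (edgeR adjusted p = 0.44) and -0.097 for Tnc (edgeR adjusted p = 0.83). Tnc was also not called with RLE factors, library size alone, the proliferating and low libraries alone or the top 5%. Thbs1 and Tnc belong to the matrix list, whose members went both ways: of 29 matrix and EMT genes, 2 were called, 7 were higher and 11 lower in both sections, and the median log2 fold change was -0.04. Of the other genes called lower, Ccn2 encodes a matricellular growth factor, Ier3 is an immediate early gene, Pthlh encodes parathyroid hormone-related protein and Tnfrsf11b the decoy receptor osteoprotegerin. Pthlh stood at 2.80 and 3.61 CPM in section 1 and 25.6 and 69.9 CPM in section 2, and fell by 1.28 (SE 0.20, edgeR adjusted p = 0.033). In section 1 it held 12 and 41 UMIs, with a log2 fold change of -0.32 against -1.43 in section 2. The test of Pthlh thus has in effect 1 section. Tnfrsf11b stood at 6.06 and 9.34 CPM in section 1 and 242 and 487 CPM in section 2, and fell by 0.97 (SE 0.097, edgeR adjusted p = 0.0053). The largest fall was that of Iglc1, an immunoglobulin light chain gene (-1.98, edgeR adjusted p = 0.0029), but 73.0% of its UMIs in the low spots of section 1 lay in 5 spots, and section 2 held only 2 UMIs in members and 16 in low spots. The log2 fold change of Iglc1 was -0.22 with members by Mki67 alone (edgeR adjusted p = 0.66) and -0.56 after thinning (edgeR adjusted p = 0.27). Of the 11 B and plasma cell genes, 8 were higher in both sections (72.7%, against 26.0% of all genes).

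Several genes that rose were epithelial and rested on section 2. Krt5, a basal keratin, stood at 208 CPM in members and 92.8 CPM in low spots of section 2 and at 0.233 and 0.441 CPM in section 1, and the fitted log2 fold change was 1.15 (SE 0.12, edgeR adjusted p = 0.0053). Krt15, another basal keratin, stood at 56.8 and 14.0 CPM in section 2, and Col17a1, the hemidesmosome collagen, at 139 and 75.5 CPM, and both had no UMI in members or low spots of section 1. Sncg, at 68.5 and 17.9 CPM, Sostdc1, a BMP and Wnt antagonist, at 60.4 and 20.1 CPM, Krt6a, at 220 and 142 CPM, and the milk protein gene Csn3, at 197 and 115 CPM, were also called, with 0.264 to 1.86 CPM in section 1. For these 7 genes the test has in effect 1 section. A few spots carried much of the signal for Krt15 and Csn3, since the 5 highest member spots of section 2 held 61.7% and 71.9% of their UMIs. Within the larger tumor body of section 2, Krt5 stood at 208 CPM in 54 members and 87.4 CPM in 197 low spots by plain CPM, and in the smaller body at 209 CPM in 12 members and 138 CPM in 10 low spots. Krt6a, alone among the 7, was lower in members of the smaller body, at 313 against 377 CPM. In the larger body Krt6a stood at 197 CPM in members and 127 CPM in low spots. Krt14, the other common basal keratin, stood at 1195 and 783 CPM in section 2 and was not called (edgeR adjusted p = 0.10), while Cldn4, a claudin of luminal cells, stood at 691 and 1082 CPM there and fell by 0.62 (SE 0.095, edgeR adjusted p = 0.027). Cldn4 stood at 1.86 and 2.47 CPM in section 1, on 8 and 28 UMIs, so its test too has in effect 1 section. Of 30 epithelial and mammary genes, 3 were called higher, 1 lower, and 13 were lower in both sections.

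The genes that defined tumor spots differed widely between the sections, and none of them was called between the classes. The gap between sections follows in part from the rule, which asked for collagen genes in section 1 and for Epcam and keratins in section 2. In section 1 Col1a1 stood at 20467 CPM in members and 21072 in low spots and Epcam at 7.69 and 6.08 CPM, and in section 2 Epcam stood at 1742 and 2051 CPM and Col1a1 at 115 and 174 CPM. Section 1 tumor spots thus held almost no epithelial keratin or Epcam signal, and which of their cells were dividing cannot be told from these sums.

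Ctsk and Atp6v0d2, the protease cathepsin K and a proton pump subunit, both known from osteoclasts and some macrophages, rose. Ctsk stood at 625 CPM in members and 389 in low spots of section 1 and at 9.41 and 6.59 CPM in section 2 (log2 fold change 0.66, SE 0.086, edgeR adjusted p = 0.015). Atp6v0d2 stood at 75.3 and 42.7 CPM in section 1 and 13.6 and 6.47 CPM in section 2 (0.87, SE 0.12, edgeR adjusted p = 0.019). Section 2 held few UMIs, 29 in members and 55 in low spots for Ctsk and 42 and 54 for Atp6v0d2. Neither was called with members by Top2a alone (edgeR adjusted p = 0.30 and 0.17) or after thinning (edgeR adjusted p = 0.10 and 0.13). The macrophage list as a whole had none of 18 genes called and summed to 13908 against 14257 CPM in section 1 and 4073 against 3211 CPM in section 2. Csf1r, the receptor for IL34 and CSF1, stood at 391 and 369 CPM in section 1 and 94.1 and 100.2 CPM in section 2 (0.01, SE 0.076, edgeR adjusted p = 0.99). Il34 stood at 68.5 and 57.1 CPM in section 1 and 47.7 and 72.5 CPM in section 2, opposite directions that left a log2 fold change of -0.12 (SE 0.18, edgeR adjusted p = 0.89). Arg1, an arginase of immunosuppressive macrophages, stood at 70.6 CPM in members and 249 in low spots of section 1 but at 401 and 339 CPM in section 2 (-0.73, SE 0.70, edgeR adjusted p = 0.83), so its direction also depended on the section.

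Sums of other cell type lists differed between the classes, some in opposite directions in the 2 sections. Their part in the results was not tested. The T and NK cell list had none of 18 genes called and 11 higher in both sections (61.1%, against 26.0% of all genes). It summed to 439 CPM in members, 426 in the middle class and 358 in low spots of section 1, and to 28.1, 19.2 and 18.6 CPM in section 2, where Cd3e had 2 UMIs in all members and Cd8b1 had 1 in members and 0 in low spots. The B and plasma cell list had none of 11 genes called and 8 higher in both (72.7%, against 26.0% of all genes). It summed to 1184 against 965 CPM in section 1 and 135 against 119 CPM in section 2. Brain markers did not move alike in the 2 sections. The astrocyte list summed to 1314 CPM in members against 1933 CPM in low spots of section 1. In section 2 it summed to 3460 against 4029 CPM, so the sum was lower in both. Gene by gene the sections differed: the median log2 fold change of its 8 genes was -0.55 in section 1 but 0.48 in section 2. Only 2 of the 8 were lower in both. The neuron list summed to 140 against 244 CPM in section 1 and 129 against 113 CPM in section 2, and the oligodendrocyte list to 366 against 747 CPM and 630 against 434 CPM, lower in section 1 and higher in section 2. Endothelial genes summed to 494 against 557 CPM in section 1 and 625 against 501 CPM in section 2, with none of 12 called. None of the 21 interferon response genes was called.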

How the data were processed

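Mouse Visium CytAssist libraries of 2 fixed sections were used. The authors ran Space Ranger 2.1.1 with mm10, per the submitters' processing notes, and deposited unnormalized UMI counts of 19465 genes for every tissue spot. The sections held 3406 and 4017 tissue spots, with 63986887 and 71878333 UMIs and medians of 9733.5 and 12390 per spot. Spots can hold several cells, and no doublet caller or deconvolution was run. Of the gene symbols, 11 occur on more than 1 row and were kept as separate rows.

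The spots, the gene lists and the comparisons were chosen with earlier results of these data known. Counts were summed over the 3 classes of each section, giving 6 libraries, and Mki67 and Top2a were removed. edgeR 4.0.16 in R 4.3.3 was run with filterByExpr, TMM factors (0.962 to 1.03), a robust quasi-likelihood fit with section as a block, and Benjamini-Hochberg adjustment, and a gene was called at an adjusted p under 0.05. The classes of a section come from 1 host, and this pairing showed in the common dispersion, 0.00391 with the section block and 0.333 without. Fold changes within 1 section used a prior of 0.5 CPM. Gene lists were described by counts and medians, without a test. Genes named were, per list, up to 3 with the largest fold among called genes that moved alike in both sections, the 8 largest rises and falls outside the lists with at least 20 CPM, a fixed set of proliferation, tumor and macrophage genes, and the 2 largest folds of lists without a call. Vegfa, Zwint, Kif4, Krt14, P4ha2, Ero1l, Ccn2, Ier3 and the epithelial genes beyond Cldn4 were named after their values were seen. Neighbors were the up to 6 adjoining spots of the hexagonal array, and border spots touched a tissue spot outside the tumor spots. Counting intervals are exact Poisson intervals and cover counting error only.

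Alternatives were RLE factors, library size alone, DESeq2 1.42.0, no filter on low counts, no section block, the 4 proliferating and low libraries alone, members by Mki67 or Top2a alone, other percentages, UMI minimums of 10000 and 30000, thinning to 20000 UMIs, no border spots and each section alone. The fit was tested on simulated counts with known fold changes. Genes of the lists that the files do not hold were not used here. 1 of the genes called lower is not reported here. Python 3.11.15 with scipy 1.17.1 was used for spot-level values.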

Additional observations from a re-analysis of the deposited data

Results flagged for a closer look

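Spots outside the tumor spots reached the proliferating limit of their section. In section 1, none of the 149 other spots with at least 20000 UMIs did. Taking 3 spots as the most that a count of 0 allows gives a share of 2.01%. This bound takes the spots as independent, although spots of 1 section are not replicates. With at least 5000 UMIs, 19 of 1893 did (1.0%), of which 6 touched a tumor spot. In section 2, 29 of 490 spots with at least 20000 UMIs did (5.92%), of which 15 touched a tumor spot, and their median Epcam, Krt7 and Krt8 level was 3730 CPM, under the 5000 CPM that defined tumor spots. With at least 5000 UMIs, 75 of 2926 did (2.56%), of which 30 touched a tumor spot. They came to attention because the comparison did not use these spots, and at low depth a few UMIs pass the limit.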

How the results depend on the processing

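The direction of the 2 main patterns held under all alternatives run, and single gene calls did not. The cell cycle median ranged from 0.26 (section 1 alone) to 0.74 (section 2 alone), with 0.30 after thinning to 20000 UMIs, and the hypoxia median from -0.75 (section 2 alone) to -0.24 (section 1 alone), with -0.29 when Top2a alone chose the spots. The genes called in all were 25 with library size alone, 81 with members by Mki67 alone and 89 with the top 20% against the bottom 50%. Genes higher were 33 with RLE factors, 9 with library size alone, 46 with DESeq2, 32 with no filter and 47 with the top 20%. Genes lower were 16 with library size alone, 53 by Mki67 alone and 42 with the top 20%. Without the section block, that is without the pairing of classes within a section, 0 genes were called by edgeR, 0 higher and 0 lower, with 71 at an unadjusted p under 0.05. Only 24 of the 47 calls were shared with the thinned counts, 25 with members by Top2a alone and 34 with DESeq2. Through ties, thinning also widened the classes, to 138 members and 328 low spots in section 1 and 91 and 271 in section 2. Of the 67 named genes, 30 were called. Of these 30, 19 lost their call with library size alone, 16 after thinning and all 30 without the section block. The 8 called cell cycle genes all lost their call with library size alone, and all of them but Tk1 after thinning. Cdk1, not called in the main fit, was called with DESeq2 (adjusted p = 0.029). The called genes among the named were chosen to move alike in both sections, so each section alone could not change their sign. Under the other alternatives none of them changed sign. Krt5 and Csn3, called but not among the 67, had opposite signs in the 2 sections. Their log2 fold changes were -0.36 and -0.14 in section 1 and 1.16 and 0.78 in section 2. Genes without a call changed sign, such as Cdkn1a (0.11 by Top2a alone). Il34 and Epcam (0.26 and 0.32 in section 1 alone) and Arg1 (0.24 in section 2 alone) did too. With 1 section left out no test across genes could be run. Depth limits the choice of spots, with a median of 13.5 and 9 UMIs of the choosing pair per spot.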
